A study of Homo sapiens with 6 samples.

Results

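The 37 genes described here serve the unfolded protein response and the degradation of misfolded proteins at the endoplasmic reticulum (ER). They were chosen by symbol, as the rows of a fixed list of names that occur in both deposited tables, and all 37 were found among the 33095 genes listed. That rule uses names only, but the list itself was drawn up with earlier results of these data known. The study used MM.1S (written MM1.S in part of the labels), an established human cell line from multiple myeloma, a malignancy of the plasma cells that secrete antibody. Lentivirus had delivered 1 of 3 hairpins: anti-IRF3 shRNA 2, anti-IRF3 shRNA 1, or a scramble control, with 2 libraries for each and 6 in all. IRF3 is a transcription factor of the interferon response. Every group therefore consists of cells of 1 line that carried a lentivirus, and no untransduced group was analysed. How long the hairpins were expressed, and whether transduced cells were selected or cloned, the labels do not say.

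Proteins that enter the secretory pathway fold in the ER with the help of chaperones, of lectins that bind their sugar chains and of enzymes that form disulfide bonds. When unfolded proteins gather there, the membrane sensors IRE1 (gene ERN1), PERK (EIF2AK3) and ATF6 signal to the nucleus and raise the folding and degradation capacity. Proteins that fail to fold are marked by mannose trimming, drawn through the membrane at the HRD1 ubiquitin ligase and handed to the proteasome, a route called ER-associated degradation. Plasma cells secrete antibody in bulk, and their differentiation depends on XBP1, the transcription factor made active when IRE1 splices its mRNA.

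Poly(A)-selected RNA was sequenced, and the authors deposited 1 table of comparison for each hairpin against scramble. The tables hold, per gene, a mean normalised read count over the libraries, a log2 fold change of hairpin over scramble with its standard error (SE), and DESeq2 p-values. Single libraries have no values in them, so the spread between libraries is seen only through the SE, and the depth of each library is unknown. The group means quoted below were reconstructed from the deposited mean and both fold changes. Both comparisons share the scramble libraries, so that their values are given side by side and no likeness between them is drawn. The labels do not say that the 2 libraries of a group came from separate cultures. The p-values and SEs rest on a dispersion modelled by DESeq2 and apply only to these libraries, whose spread may be technical. In bulk RNA, fewer cells expressing a gene and less of its RNA per cell cannot be told apart.

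The targeted mRNA was checked first. In the authors' deposited table for shRNA 2, the log2 fold change of IRF3 was -0.18 ± 0.10 (SE), a ratio of 0.881 with a 95% interval of 0.768 to 1.01 and a DESeq2 adjusted p of 0.181. With shRNA 1 the log2 fold change in the authors' deposited table was -1.53 ± 0.10 (SE), a ratio of 0.347 (DESeq2 adjusted p 8.45e-46). In the libraries labelled shRNA 2 a lower level of the target could thus not be detected, and every direction below for that hairpin belongs to libraries so labelled. The cell type was checked on marker genes. All 10 plasma cell markers were expressed, the lowest being CD38 with a mean normalised count of 1665, while markers of T cells, monocytes and epithelium had means of 57.1 or less. Of the T cell markers, CD3E, the one at 57.1, was called higher with shRNA 1, at a ratio of 2.54 (DESeq2 adjusted p 0.0230 in the authors' deposited table). Of the erythroid markers, HBB had a mean of 144 and was called lower with shRNA 2, at a ratio of 0.553 (DESeq2 adjusted p 0.0225 in the authors' deposited table). Of 3 markers of the MM.1S line, all were called with shRNA 2, at ratios computed from the authors' deposited table of 0.290 for CCND2, 0.724 for ITGB7 and 1.75 for MAF, while with shRNA 1 ITGB7 was called, at 1.23. The plasma cell markers themselves changed, per the authors' deposited tables. Under shRNA 2, 8 of 10 (80.0%) were lower and 1 (10.0%) higher, against 18.1% and 10.9% of all genes tested. Under shRNA 1, 7 (70.0%) were lower and 1 (10.0%) higher, against 14.8% and 9.8%. Their ratios ran from 0.273 for IRF4 to 1.86 for CD38 with shRNA 2. With shRNA 1 they ran from 0.427 for SLAMF7 to 1.21 for SDC1. Whether any of the marker changes given here plays a part in the results below was not tested.

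Most of the 37 genes were expressed at high levels, with mean normalised counts between 405 for EDEM2 and 94140 for TXNDC5, and all passed the authors' filter on low counts in both tables. A gene is called here when its DESeq2 adjusted p in the authors' deposited table is below 0.05. In the libraries labelled shRNA 2, 22 of the 37 were lower, 1 was higher and 14 were not called. Over all 17054 genes tested in that comparison, 18.1% were lower and 10.9% higher, and over the 8271 tested genes with a mean of at least that of EDEM2 the shares were 28.0% and 15.1%. With shRNA 1, 14 of the 37 were lower, 3 were higher and 20 were not called. Of all 14488 genes tested with shRNA 1, 14.8% were lower and 9.8% higher, and among the 8271 more abundant genes these shares were 21.5% and 13.0%. That more abundant set has only a lower limit on the mean. It was not matched to the members, of which 34 had means of 1000 or more. As shares of the 37, the lower members made up 59.5% with shRNA 2 and 37.8% with shRNA 1, and the higher members 2.7% with shRNA 2 and 8.11% with shRNA 1, so that in each comparison the share of lower members was above, and that of higher members below, both backgrounds.

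The median log2 fold change of the 37 genes was -0.34 in the libraries labelled shRNA 2 and -0.14 with shRNA 1. The corresponding medians of the 8271 more abundant genes were -0.07 with shRNA 2 and -0.05 with shRNA 1. The lowest ratios to scramble computed from the authors' deposited tables were 0.463 for PDIA6 with shRNA 2 and 0.456 for TXNDC11 with shRNA 1. SEs of the members lay between 0.07 and 0.18, and the smallest change that was called had an absolute log2 value of 0.29 with shRNA 2 and 0.20 with shRNA 1. Among the genes that were not called, 2 had an unadjusted p below 0.05 with shRNA 2 and 4 with shRNA 1. Summed over the members, the reconstructed normalised counts were 284737 with shRNA 2, 323902 with shRNA 1 and 419926 with scramble, which made the ratio to scramble 0.678 for shRNA 2 and 0.771 for shRNA 1. TXNDC5 alone supplied 27.5% of the summed means, and without it the ratio was 0.779 with shRNA 2 and 0.902 with shRNA 1.

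**Figure D1:**
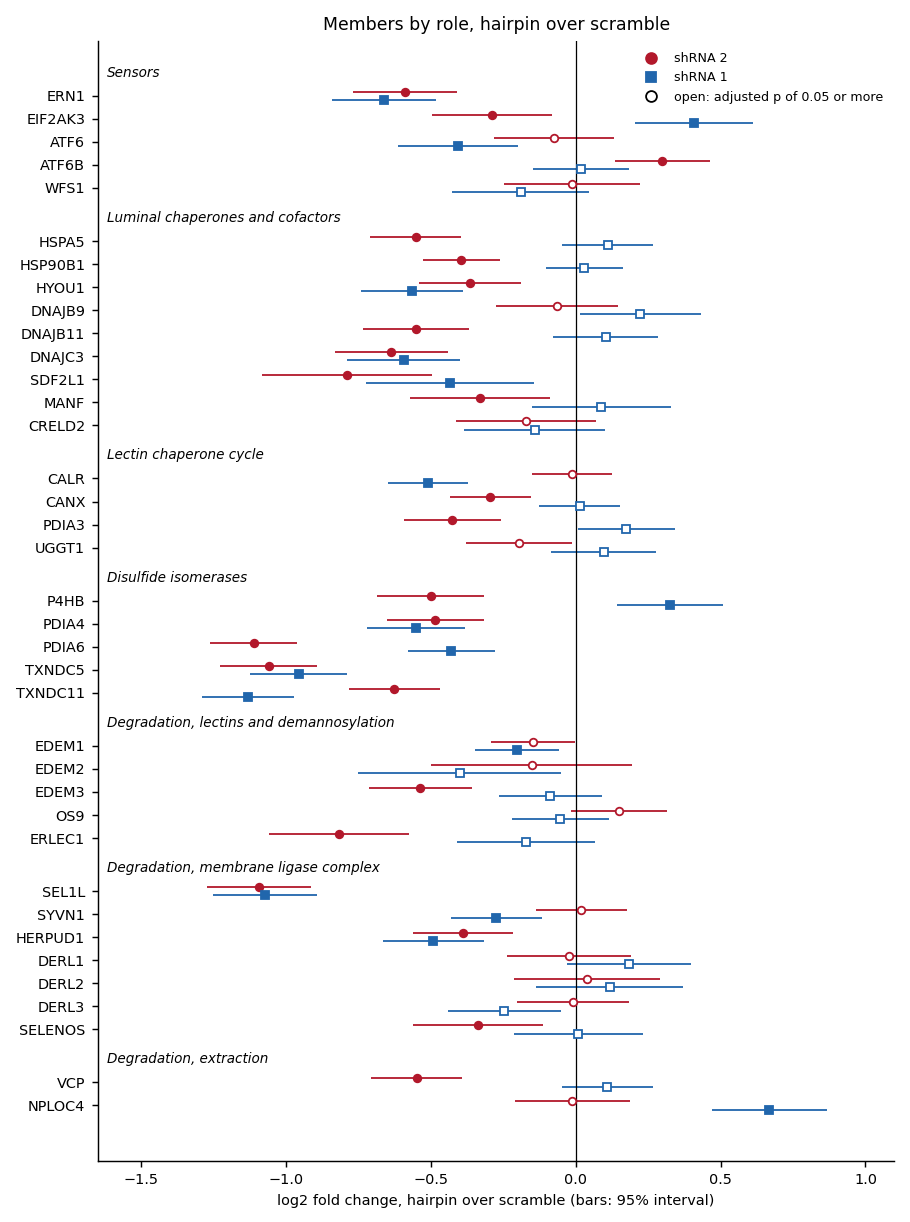
Log2 fold change of each of the 37 genes over scramble (horizontal axis), grouped by role, for shRNA 2 (red circles) and shRNA 1 (blue squares). Bars are 95% intervals from the deposited SEs, and open symbols have an adjusted p of 0.05 or more. The red symbols of 22 genes and the blue symbols of 14 are filled and left of 0, while EIF2AK3 and P4HB have filled symbols on both sides.

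**Figure D2:**
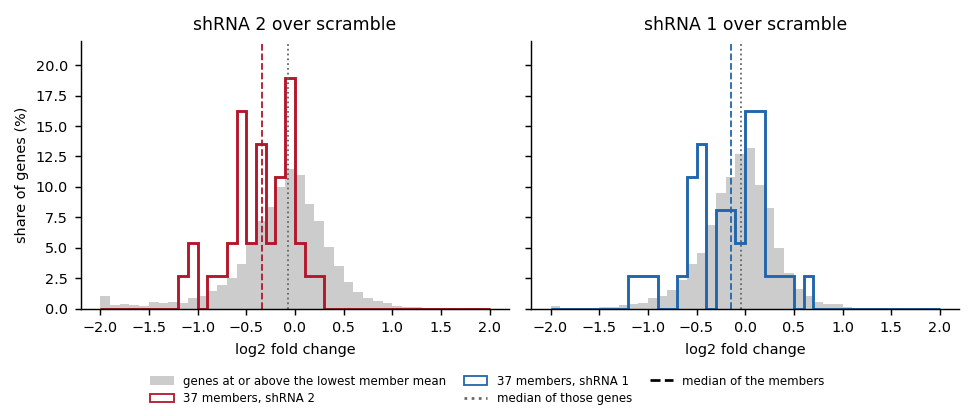
Distribution of log2 fold changes over scramble for the 37 genes (outlines) and for the 8271 genes with a mean of at least the lowest member's (grey), as percent of each set in bins of 0.1, with shRNA 2 on the left and shRNA 1 on the right. Values beyond the axis are drawn in the outermost bins. Dashed lines mark the medians of the members (-0.34 for shRNA 2, -0.14 for shRNA 1) and dotted lines those of the grey genes (-0.07 for shRNA 2, -0.05 for shRNA 1).

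Promoter sequences of the members were searched for the elements through which the response is known to act. ATF6, with the CCAAT-binding factor NF-Y, binds the ER stress response element (ERSE: CCAAT, any 9 bases, CCACG), and a second form, ERSE-II, reads ATTGG, any base, CCACG. XBP1 binds these and a further element with the core TGACGTG (UPRE core). RefSeq windows of 300 bases, from 250 before to 50 after each start (GRCh38.p14), were available for 34 of the 37 genes, and both strands were searched for exact matches. ERSE occurred in 6 of the 34 (17.6%), against 0.0916% of 27305 genes with a window and 0.159% of those with a mean of 50 or more. ERSE-II occurred in 3 (8.82%), against 0.0696% and 0.149%. The UPRE core occurred in 4 (11.8%), against 2.4% and 3.44%. An element bound by interferon regulatory factors, written as GAAA, any 2 bases, GAAA, had no match in the windows of the 34 genes, and was found in 4.38% of all genes. These elements were first defined on promoters of several of these very genes, so that the shares describe the list and are no independent finding. A match says nothing of binding, and the absence of one says only that these letters are not in the window.

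The stretches below carry the matches of 10 members and are shown because genes with like elements had unlike fold changes. Each runs 5′ to 3′ on the strand of its gene, with 30 bases or the window's end on either side, and capitals mark the matches. The ones for HSPA5 (chr9:125241361-125241439, minus strand), HSP90B1 (chr12:103930186-103930369, plus), CANX (chr5:179698748-179698826, plus), CALR (chr19:12938359-12938432, plus), CRELD2 (chr22:49918524-49918602, plus) and PDIA6 (chr2:10812823-10812901, minus) hold ERSE. Those of HYOU1 (chr11:119057244-119057423, minus), SDF2L1 (chr22:21642084-21642154, plus) and HERPUD1 (chr16:56931995-56932065, plus) hold ERSE-II. That of TXNDC5 (chr6:7910133-7910199, minus) holds the UPRE core. In HYOU1 a UPRE core overlaps the first of its 2 ERSE-II matches, and HSP90B1 has 2 ERSE matches, the second on the opposite strand.
HSPA5: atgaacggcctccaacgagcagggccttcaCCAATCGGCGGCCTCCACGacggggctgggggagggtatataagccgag
HSP90B1: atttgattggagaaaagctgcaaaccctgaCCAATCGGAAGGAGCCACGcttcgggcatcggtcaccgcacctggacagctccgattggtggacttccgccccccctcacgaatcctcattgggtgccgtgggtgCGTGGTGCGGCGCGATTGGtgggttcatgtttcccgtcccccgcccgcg
CANX: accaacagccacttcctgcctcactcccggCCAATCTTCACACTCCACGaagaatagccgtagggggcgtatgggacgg
CALR: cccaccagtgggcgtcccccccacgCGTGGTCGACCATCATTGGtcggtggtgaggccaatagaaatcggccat
CRELD2: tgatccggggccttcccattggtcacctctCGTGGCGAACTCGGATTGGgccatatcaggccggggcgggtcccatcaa
PDIA6: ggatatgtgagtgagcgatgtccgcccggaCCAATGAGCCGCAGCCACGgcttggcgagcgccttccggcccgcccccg
HYOU1: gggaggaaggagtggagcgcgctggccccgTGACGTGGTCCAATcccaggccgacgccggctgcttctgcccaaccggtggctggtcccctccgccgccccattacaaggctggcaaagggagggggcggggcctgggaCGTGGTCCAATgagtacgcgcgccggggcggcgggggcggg
SDF2L1: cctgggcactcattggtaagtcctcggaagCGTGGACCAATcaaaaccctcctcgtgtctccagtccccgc
HERPUD1: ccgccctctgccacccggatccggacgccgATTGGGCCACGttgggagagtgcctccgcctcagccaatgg
TXNDC5: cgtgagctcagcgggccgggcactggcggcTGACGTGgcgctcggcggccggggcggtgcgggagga

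The 9 members with ERSE or ERSE-II had a median log2 fold change of -0.39 in the libraries labelled shRNA 2, with 7 of them lower, and of -0.43 with shRNA 1, with 5 lower, computed from the authors' deposited tables. None of the 9 was called higher with either hairpin. The other 25 members with a window had medians of -0.33 for shRNA 2 and -0.09 for shRNA 1, with 14 lower and 1 higher for shRNA 2 and 9 lower and 3 higher for shRNA 1. Outside the list, 21 tested genes have ERSE or ERSE-II in their window, among them the pathway genes XBP1, SERP1 and ERO1B. The medians of the 21 were -0.08 with shRNA 2 (4 lower, 1 higher) and -0.05 with shRNA 1 (5 lower, 2 higher). Of all genes tested, 18.1% were lower and 10.9% higher with shRNA 2, and 14.8% lower and 9.8% higher with shRNA 1. Of the genes with a mean of at least the lowest member's, 28.0% were lower and 15.1% higher with shRNA 2. With shRNA 1 they were 21.5% lower and 13.0% higher. The further UPRE core matches lay in the windows of TXNDC11 and VCP. Among the genes with ERSE, HSPA5 was called lower with shRNA 2 and not with shRNA 1, and CALR with shRNA 1 and not with shRNA 2.

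**Figure D3:**
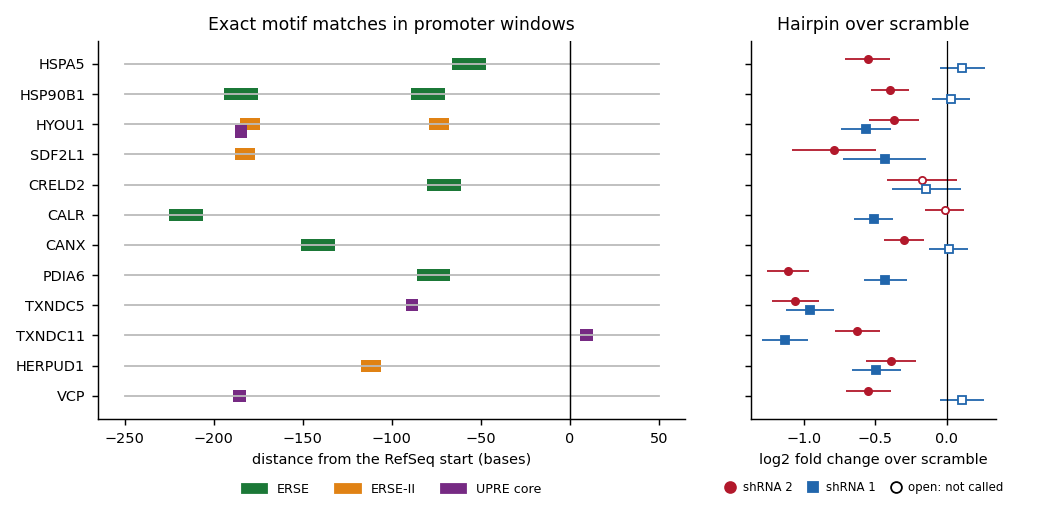
Left, position of exact matches to ERSE (green), ERSE-II (orange) and the UPRE core (purple) in the promoter windows of 12 members, in bases from the RefSeq start, each on its gene's strand. Right, log2 fold change over scramble of the same genes with 95% intervals for shRNA 2 (red circles) and shRNA 1 (blue squares), open where not called. Genes with the same element differ in which hairpin gave the lower value: HSPA5 is at -0.55 with shRNA 2 and 0.11 with shRNA 1, CALR at -0.01 with shRNA 2 and -0.51 with shRNA 1.

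The sensors did not move together. Of the 5, ERN1 and EIF2AK3 fell and ATF6B rose in the libraries labelled shRNA 2, and ERN1 and ATF6 fell and EIF2AK3 rose with shRNA 1. ERN1 (chr17:64039142-64130819, GRCh38) encodes IRE1, the kinase and endoribonuclease that splices XBP1 mRNA. Its reconstructed mean was 3951 normalised counts with shRNA 2, 3762 with shRNA 1 and 5952 with scramble. The authors' deposited tables give log2 fold changes of -0.59 ± 0.09 with shRNA 2 and -0.66 ± 0.09 (SE) with shRNA 1, with a ratio of 0.664 (DESeq2 adjusted p 2.26e-09) for shRNA 2 and of 0.632 (adjusted p 2.69e-11) for shRNA 1. EIF2AK3 (chr2:88556741-88627576), which encodes PERK, the kinase that slows translation by phosphorylating eIF2alpha, averaged 1431 with shRNA 2, 2322 with shRNA 1 and 1750 with scramble. It lay below scramble with one hairpin and above it with the other. The log2 fold changes in the authors' deposited tables were -0.29 ± 0.11 (SE, DESeq2 adjusted p 0.0235) with shRNA 2 and 0.41 ± 0.10 (SE, adjusted p 0.000769) with shRNA 1, and the call with shRNA 2 was lost on recentring to the median gene (adjusted p 0.0594).

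ATF6, the membrane-bound transcription factor released by proteolysis in the Golgi, was not called with shRNA 2, at -0.07 ± 0.11 (SE), and fell with shRNA 1, at -0.41 ± 0.11 (SE, DESeq2 adjusted p 0.000975), in the authors' deposited tables. Its paralogue ATF6B was at 0.30 ± 0.08 (SE, adjusted p 0.00213) with shRNA 2, a ratio of 1.23, and at 0.02 ± 0.08 with shRNA 1, per the authors' deposited tables and DESeq2. ATF6B was the 1 gene of the 37 that rose in the libraries labelled shRNA 2. WFS1, an ER membrane protein mutated in Wolfram syndrome, was called with neither hairpin, at -0.01 ± 0.12 with shRNA 2 and -0.19 ± 0.12 (SE) with shRNA 1 in the authors' deposited tables.

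Luminal chaperones and their cofactors were lower in 7 of 9 cases with shRNA 2 and in 3 of 9 with shRNA 1, and none was called higher, with median log2 fold changes of -0.40 for shRNA 2 and 0.03 for shRNA 1. The lower shares were 77.8% with shRNA 2 and 33.3% with shRNA 1. Among the more abundant genes they were 28.0% with shRNA 2 and 21.5% with shRNA 1, and the higher shares 15.1% and 13.0%. HSPA5 (chr9:125234853-125241330) encodes BiP, the central Hsp70 chaperone of the ER that also holds the sensors inactive. Its reconstructed mean was 8180 normalised counts in the libraries labelled shRNA 2, 12958 with shRNA 1 and 12001 with scramble. With shRNA 2 it fell to a ratio of 0.682 (95% interval 0.611 to 0.760), the log2 fold change being -0.55 ± 0.08 (SE, DESeq2 adjusted p 1.3e-10) in the authors' deposited table. With shRNA 1 it was at 0.11 ± 0.08 (SE) and not called, and the interval of the ratio, 0.968 to 1.20, leaves out a fall of the size seen with shRNA 2. HSP90B1 (chr12:103930107-103953645), the ER form of Hsp90, averaged 28691 with shRNA 2, 38513 with shRNA 1 and 37738 with scramble. The authors' deposited tables give it -0.40 ± 0.07 (SE, DESeq2 adjusted p 8.01e-08) with shRNA 2 and 0.03 ± 0.07 (SE, adjusted p 0.824) with shRNA 1.

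The J-domain proteins, which deliver clients to BiP and start its ATPase cycle, differed among themselves. DNAJB11, which binds unfolded proteins directly, was at -0.55 ± 0.09 (SE, DESeq2 adjusted p 5.42e-08) with shRNA 2 and at 0.10 ± 0.09 with shRNA 1 in the authors' deposited tables. DNAJC3, known as P58IPK, fell with both hairpins, at -0.64 ± 0.10 (SE, DESeq2 adjusted p 2.42e-09) with shRNA 2 and -0.59 ± 0.10 (SE, adjusted p 4.7e-08) with shRNA 1 in the authors' deposited tables, with reconstructed means of 1555 with shRNA 2, 1601 with shRNA 1 and 2418 with scramble. DNAJB9, which in hamster cells returns IRE1 to its inactive state through BiP, was called with neither, at -0.07 ± 0.11 with shRNA 2 and 0.22 ± 0.11 (SE) with shRNA 1 in the authors' deposited tables. Its exons overlap those of PNPLA8 and THAP5 on the opposite strand, whose means are 55.2% and 52.0% of its own, and whether the counting used strand is not stated in the sources.

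HYOU1 (chr11:119044189-119057202), the Hsp110-type nucleotide exchange factor of BiP, averaged 8124 with shRNA 2, 7080 with shRNA 1 and 10468 with scramble. It was lower with both hairpins, at -0.37 ± 0.09 (SE, DESeq2 adjusted p 0.000322) with shRNA 2 and -0.56 ± 0.09 (SE, adjusted p 1e-08) with shRNA 1 in the authors' deposited tables. SDF2L1, a partner of DNAJB11, was at -0.79 ± 0.15 (SE, adjusted p 1.49e-06) with shRNA 2 and -0.43 ± 0.15 (SE, adjusted p 0.0175) with shRNA 1, the largest fall among the luminal chaperones with shRNA 2 in the authors' deposited DESeq2 table. MANF, a BiP cofactor that can also be secreted, was at -0.33 ± 0.12 (SE, DESeq2 adjusted p 0.0278) with shRNA 2 and at 0.09 ± 0.12 with shRNA 1 in the authors' deposited tables, and the call was lost without the filter on low counts (adjusted p 0.0537) and on recentring (0.0609). CRELD2, an ER stress-inducible protein with epidermal growth factor-like repeats, was called with neither hairpin, at -0.17 ± 0.12 with shRNA 2 and -0.14 ± 0.12 (SE) with shRNA 1 in the authors' deposited tables, though it carries an ERSE. Reads of CRELD2 are uncertain where it overlaps ALG12 on the opposite strand.

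The lectin chaperone cycle holds glycoproteins in the ER until they are folded. Of its 4 genes, CANX and PDIA3 fell in the libraries labelled shRNA 2 and CALR fell with shRNA 1. Calreticulin (CALR, chr19:12938578-12944489) had a reconstructed mean of 18317 in the libraries labelled shRNA 2, 12971 with shRNA 1 and 18489 with scramble. It was not called with shRNA 2, at -0.01 ± 0.07, and fell with shRNA 1, at -0.51 ± 0.07 (SE, DESeq2 adjusted p 1.7e-11), in the authors' deposited tables. Calnexin (CANX, chr5:179678628-179730925), the membrane-bound lectin, averaged 14342 with shRNA 2, 17772 with shRNA 1 and 17602 with scramble. The authors' deposited tables give it -0.30 ± 0.07 (SE, DESeq2 adjusted p 0.000252) with shRNA 2 and 0.01 ± 0.07 (SE, adjusted p 0.928) with shRNA 1. PDIA3, the isomerase that both lectins recruit, was at -0.43 ± 0.09 (SE, DESeq2 adjusted p 6.3e-06) with shRNA 2 and at 0.17 ± 0.09 (SE) with shRNA 1 in the authors' deposited tables. The value with shRNA 1 was not called (adjusted p 0.128) and passed on recentring to the median gene (0.0472). UGGT1, which puts glucose back on glycoproteins that are not yet folded, was called with neither, at -0.20 ± 0.09 with shRNA 2 and 0.10 ± 0.09 (SE) with shRNA 1 in the authors' deposited tables.

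The 5 disulfide isomerases outside the lectin cycle were called with both hairpins. All 5 fell in the libraries labelled shRNA 2, with a median log2 fold change of -0.63, and 4 fell and 1 rose with shRNA 1, with a median of -0.55. Among the more abundant genes, 28.0% were lower and 15.1% higher with shRNA 2. With shRNA 1 these background shares were 21.5% lower and 13.0% higher. A set of 5 genes makes such a comparison coarse. TXNDC5 (chr6:7881517-7910814), an isomerase abundant in plasma cells, had a reconstructed mean of 67914 normalised counts with shRNA 2, 72925 with shRNA 1 and 141581 with scramble. The authors' deposited tables give log2 fold changes of -1.06 ± 0.09 with shRNA 2 and -0.96 ± 0.09 (SE) with shRNA 1, with a ratio of 0.480 (DESeq2 adjusted p 2.99e-33) for shRNA 2 and of 0.515 (adjusted p 7.09e-27) for shRNA 1. A readthrough gene that shares its exons, BLOC1S5-TXNDC5, has a mean of 0.0985% of that of TXNDC5. PDIA6 (chr2:10783391-10837977), which also binds IRE1 and PERK, averaged 5117 with shRNA 2, 8208 with shRNA 1 and 11058 with scramble. Its log2 fold changes in the authors' deposited tables were -1.11 ± 0.08 (SE, DESeq2 adjusted p 4.33e-45) with shRNA 2 and -0.43 ± 0.08 (SE, adjusted p 3.53e-07) with shRNA 1, lower with both hairpins and lowest with shRNA 2.

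TXNDC11 (chr16:11679080-11742878), the thioredoxin-like partner of EDEM2 and EDEM3, had the reverse order, with reconstructed means of 12378 with shRNA 2, 8710 with shRNA 1 and 19106 with scramble. The authors' deposited tables give it -0.63 ± 0.08 (SE, DESeq2 adjusted p 2.65e-13) with shRNA 2 and -1.13 ± 0.08 (SE, adjusted p 7.3e-42) with shRNA 1. PDIA4, an isomerase with a further thioredoxin domain, was lower with both, at -0.48 ± 0.09 (SE, DESeq2 adjusted p 2.28e-07) with shRNA 2 and -0.55 ± 0.09 (SE, adjusted p 4.11e-09) with shRNA 1 in the authors' deposited tables. P4HB (chr17:81843159-81860694), the archetypal isomerase and a subunit of prolyl 4-hydroxylase, averaged 15586 with shRNA 2, 27655 with shRNA 1 and 22063 with scramble. Like EIF2AK3 it was called in opposite directions, at -0.50 ± 0.09 (SE, DESeq2 adjusted p 1.06e-06) with shRNA 2 and at 0.33 ± 0.09 (SE, adjusted p 0.00353) with shRNA 1 in the authors' deposited tables.

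Of the 14 degradation genes, 6 were lower with shRNA 2, and 4 were lower and 1 higher with shRNA 1, with median log2 fold changes of -0.15 for shRNA 2 and -0.13 for shRNA 1. The lower shares were 42.9% with shRNA 2, where 28.0% of the more abundant genes were lower, and 28.6% with shRNA 1, where 21.5% were. The higher share of 7.14% with shRNA 1 was below the 13.0% of those genes. Among the 5 that trim or read mannose, EDEM3 and ERLEC1 fell in the libraries labelled shRNA 2 and EDEM1 fell with shRNA 1. ERLEC1, a lectin that recognises trimmed glycans at the ligase, averaged 699 with shRNA 2, 1093 with shRNA 1 and 1231 with scramble, with log2 fold changes of -0.82 ± 0.12 (SE, DESeq2 adjusted p 7.45e-10) with shRNA 2 and -0.17 ± 0.12 (SE) with shRNA 1 in the authors' deposited tables. EDEM3, a mannosidase, was at -0.54 ± 0.09 (SE, DESeq2 adjusted p 5.45e-08) with shRNA 2 and -0.09 ± 0.09 (SE) with shRNA 1 in the authors' deposited tables. EDEM1, the founding member of that family, was at -0.15 ± 0.07 with shRNA 2 and -0.20 ± 0.07 (SE) with shRNA 1 by the authors' deposited tables, and the DESeq2 call with shRNA 1 (adjusted p 0.0275) was lost without the filter on low counts (0.0622) and on recentring (0.0967). EDEM2, which starts the trimming with TXNDC11 bound to it, was the least abundant member, at -0.15 ± 0.18 with shRNA 2 and -0.40 ± 0.18 (SE) with shRNA 1, and was called with neither hairpin in the authors' deposited tables. OS9, the other lectin of the ligase, was not called, at 0.15 ± 0.08 with shRNA 2 and -0.05 ± 0.08 (SE) with shRNA 1 in the authors' deposited tables.

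In the membrane ligase complex, 3 of 7 genes (42.9%) fell with each hairpin and none rose. Of the genes of comparable abundance, 28.0% were lower and 15.1% higher with shRNA 2, and 21.5% lower and 13.0% higher with shRNA 1. A set of 7 genes makes each share coarse. SEL1L (chr14:81471549-81533861), the adaptor that links the lectins to the ligase and keeps the ligase stable, had a reconstructed mean of 3927 with shRNA 2, 3979 with shRNA 1 and 8373 with scramble. The authors' deposited tables give -1.09 ± 0.09 with shRNA 2 and -1.07 ± 0.09 (SE) with shRNA 1, with a ratio of 0.469 (DESeq2 adjusted p 1.14e-30) for shRNA 2 and of 0.475 (adjusted p 2.05e-29) for shRNA 1. The ligase itself, SYVN1 (HRD1), averaged 6406 with shRNA 2, 5224 with shRNA 1 and 6322 with scramble. It was at 0.02 ± 0.08 (SE) with shRNA 2 and fell with shRNA 1, at -0.28 ± 0.08 (SE, DESeq2 adjusted p 0.00406), in the authors' deposited tables. Annotated exons of SYVN1 overlap FAU on the same strand, whose mean is 154% of its own, so that its level is uncertain. HERPUD1 (chr16:56932048-56944863), a ubiquitin-like scaffold of the complex, was lower with both, at -0.39 ± 0.09 (SE, DESeq2 adjusted p 9.17e-05) with shRNA 2 and -0.49 ± 0.09 (SE, adjusted p 6.11e-07) with shRNA 1 in the authors' deposited tables, with means of 10480 with shRNA 2, 9760 with shRNA 1 and 13727 with scramble.

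SELENOS, the selenoprotein that recruits VCP to the membrane, was at -0.34 ± 0.11 (SE, DESeq2 adjusted p 0.0141) with shRNA 2 and at 0.01 ± 0.11 (SE) with shRNA 1 in the authors' deposited tables. The derlins, rhomboid-like proteins of the retrotranslocation channel, were not called with either hairpin. DERL1 was at -0.02 ± 0.11 with shRNA 2 and 0.18 ± 0.11 with shRNA 1, DERL2 at 0.04 ± 0.13 with shRNA 2 and 0.12 ± 0.13 with shRNA 1, and DERL3 at -0.01 ± 0.10 with shRNA 2 and -0.25 ± 0.10 (SE) with shRNA 1 in the authors' deposited tables. DERL3 with shRNA 1 lay close to the threshold, with a DESeq2 adjusted p of 0.0515, and passed when only genes with a mean of 50 or more were adjusted (0.0470). Exons of DERL3 overlap SMARCB1 and those of DERL2 overlap MIS12, both on the opposite strand, with means of 74.5% and 84.3% of the derlin's, which leaves the levels of these 2 genes uncertain.

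Extraction from the membrane is driven by VCP (chr9:35056064-35073249), an AAA ATPase also called p97, with the cofactors NPLOC4 and UFD1. VCP averaged 9798 in the libraries labelled shRNA 2, 15457 with shRNA 1 and 14337 with scramble. The authors' deposited tables give it -0.55 ± 0.08 (SE, DESeq2 adjusted p 1.89e-10) with shRNA 2 and 0.11 ± 0.08 (SE, adjusted p 0.370) with shRNA 1. NPLOC4 (chr17:81556887-81648465) averaged 3946 with shRNA 2, 6327 with shRNA 1 and 3980 with scramble, and so was raised with shRNA 1 and close to scramble with shRNA 2. Its log2 fold change of 0.67 ± 0.10 (SE) with shRNA 1, a ratio of 1.59 with a DESeq2 adjusted p of 1.38e-09, was the largest rise among the 37 in the authors' deposited tables. With shRNA 2 the authors' deposited table gives -0.01 ± 0.10 (SE).

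The difference between the hairpins was tested for each gene by a two-sided z test, run on the log2 fold changes in the authors' deposited tables, shRNA 2 minus shRNA 1, with Benjamini-Hochberg adjustment over 14488 genes. Of the 37 genes, 12 were lower with shRNA 2 than with shRNA 1, 3 were higher and 22 were not called. Over all genes tested, 13.8% were lower and 10.1% higher, and over the 8271 more abundant genes 19.2% and 14.8%. The median difference of the 37 was -0.10. The shared scramble libraries make the SE of this test too large, and with an SE reconstructed for the group means alone the counts were 17 lower (45.9%) and 7 higher (18.9%), when 21.4% of all genes tested were lower and 18.0% higher. The share of higher members at that setting was thus near that of all genes. Differences were widest for P4HB, at -0.83 (95% interval -1.09 to -0.57, adjusted p 1.41e-08), and for EIF2AK3, at -0.70 (-0.99 to -0.41, adjusted p 3.48e-05).

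Genes of all roles except the ligase complex were among the 12. HSPA5, DNAJB11 and HSP90B1 differed by -0.66, -0.66 and -0.42, PDIA6 and PDIA3 by -0.68 and -0.60, and VCP and NPLOC4 by -0.66 and -0.68. ERLEC1, EDEM3 and CANX completed them at -0.65, -0.45 and -0.31. The 3 genes that were higher with shRNA 2 were TXNDC11 at 0.51 (adjusted p 0.000113), CALR at 0.50 (adjusted p 9.57e-06) and SYVN1 at 0.29 (adjusted p 0.0404), in the z test on the authors' deposited values. The difference of SYVN1 was lost without the filter on low counts (adjusted p 0.0918). For several genes the interval of the difference spans 0: that of SEL1L ran from -0.27 to 0.23, that of ERN1 from -0.18 to 0.33, that of TXNDC5 from -0.34 to 0.13 and that of DNAJC3 from -0.32 to 0.23. A difference within those bounds was not detectable for these 4 genes.

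**Figure D4:**
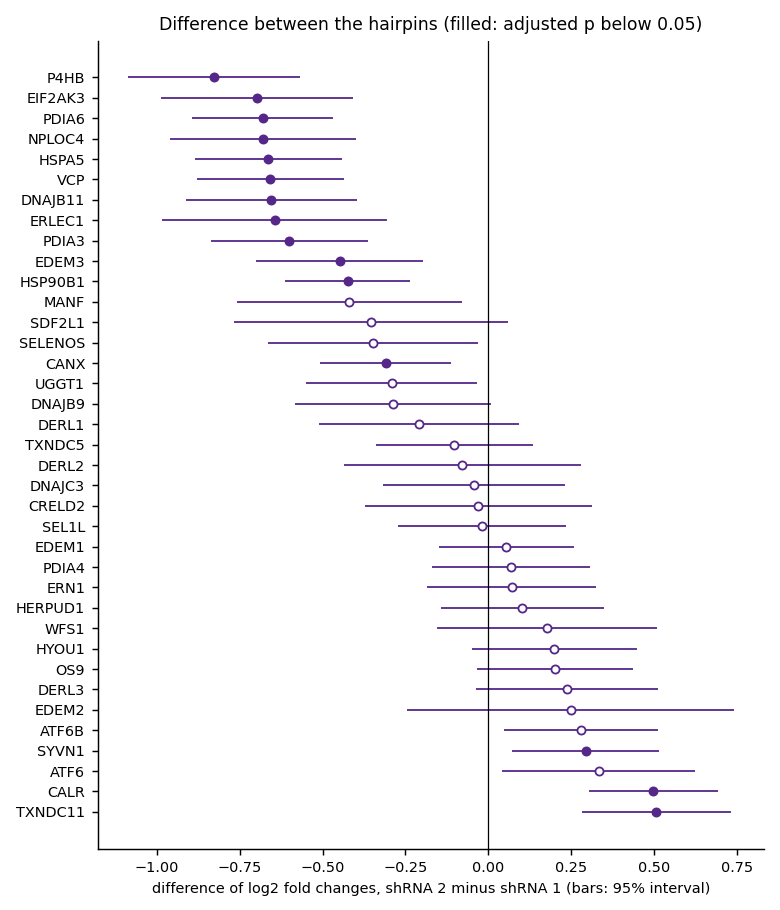
Difference of the log2 fold changes of the 37 genes, shRNA 2 minus shRNA 1 (horizontal axis), ordered from the lowest to the highest, with 95% intervals. Filled points passed the z test at an adjusted p below 0.05: 12 lie left of 0, from P4HB at -0.83 to CANX at -0.31, and 3 lie right of it, TXNDC11, CALR and SYVN1.

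Levels were compared between genes per length, as reconstructed normalised count per kb of a transcript in GENCODE 29. The transcript used was the longest with the top APPRIS principal tag, or the longest of any type for genes without that tag. TXNDC11 was without it, which makes its levels per kb and ranks less certain. TXNDC5 ranked first of the 37 in every group, with 22913 per kb with shRNA 2, 24603 with shRNA 1 and 47767 with scramble. HSP90B1 was second, with 10039 per kb with shRNA 2, 13475 with shRNA 1 and 13204 with scramble. CALR stood above P4HB with shRNA 2, at 9625 against 5988 per kb, and P4HB above CALR with shRNA 1, at 10624 against 6816. With scramble CALR ranked 3 at 9716 per kb and P4HB 4 at 8476. TXNDC11, at 3895 per kb with shRNA 2 and 2741 with shRNA 1, ranked 5 in the libraries labelled shRNA 2 and 10 with shRNA 1, against 5 with scramble at 6012 per kb. SEL1L ranked 28 with shRNA 2 and 27 with shRNA 1, against 21 with scramble, and its level was 495 per kb with shRNA 2, 502 with shRNA 1 and 1056 with scramble. EDEM2 and DERL2 held ranks 36 and 37 in every group, in either order, with DERL2 at 204 per kb with shRNA 2, 216 with shRNA 1 and 199 with scramble.

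**Figure D5:**
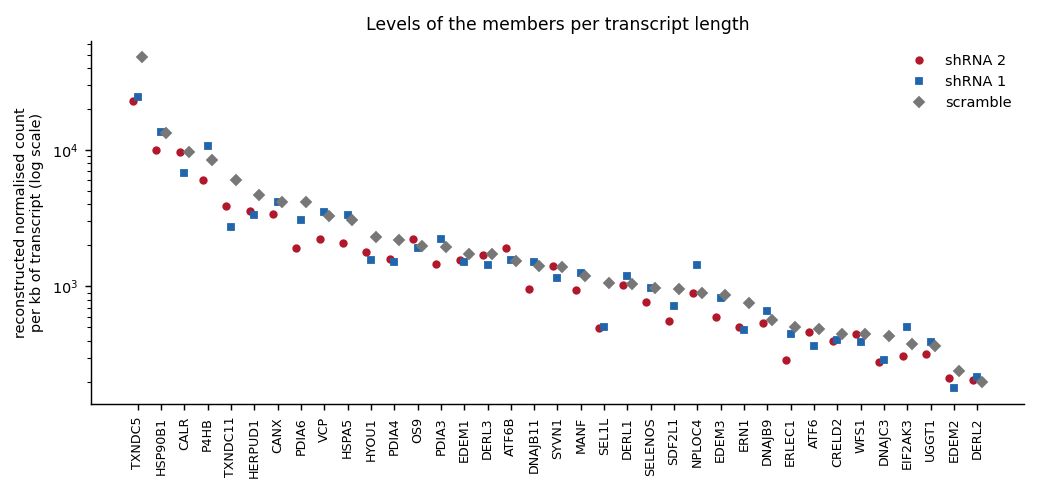
Reconstructed normalised count per kb of transcript (vertical log axis) of the 37 genes, ordered by the level with scramble, for shRNA 2 (red circles), shRNA 1 (blue squares) and scramble (grey diamonds). The members span from TXNDC5, at 47767 per kb with scramble, to DERL2 at 199, and both hairpins lie under scramble for TXNDC5, TXNDC11, PDIA6 and SEL1L.

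A further 70 genes of the pathway were listed by role. In the libraries labelled shRNA 2, 27 of the 68 tested were lower and 1 higher, with a median log2 fold change of -0.18, per the authors' deposited table. With shRNA 1, 9 of the 66 tested were lower and 12 higher, with a median of 0.06. The lower share was 39.7% with shRNA 2, against 18.1% of all genes tested and 28.0% of the more abundant genes. With shRNA 1 it was 13.6%, below both backgrounds of 14.8% and 21.5%, and the higher share was 18.2%, against 9.8% and 13.0%. The difference was called lower for 18 (27.3%) and higher for 6 (9.09%) of 66, against 13.8% and 10.1% of all genes tested. XBP1, for which spliced and unspliced mRNA are not separated in these tables, was lower with both hairpins, at a ratio of 0.449 with shRNA 2 (DESeq2 adjusted p 5.79e-34) and 0.561 with shRNA 1 (adjusted p 9.09e-18) computed from the authors' deposited tables. ATF4, the transcription factor translated upon PERK signalling, was at -0.03 ± 0.09 with shRNA 2 and 0.27 ± 0.09 (SE) with shRNA 1 in the authors' deposited tables, higher with shRNA 1 (DESeq2 adjusted p 0.0136). DDIT3, its target CHOP, had a mean of 162 and was called with neither, at 0.28 ± 0.27 with shRNA 2 and -0.47 ± 0.28 (SE) with shRNA 1 in the authors' deposited tables.

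Among 19 tested transducers and regulators, 9 were lower and none higher with shRNA 2, and 2 were lower and 4 higher with shRNA 1. Lower shares were 47.4% with shRNA 2 and 10.5% with shRNA 1, against 28.0% of abundant genes with shRNA 2 and 21.5% with shRNA 1. The higher share with shRNA 1 was 21.1%. Of abundant genes, 13.0% were higher with shRNA 1 and 15.1% with shRNA 2. TMBIM6, an ER membrane protein that restrains IRE1, was at -0.19 ± 0.08 with shRNA 2 and 0.45 ± 0.08 with shRNA 1, and RTCB, the ligase that joins the XBP1 exons, at -0.38 ± 0.09 with shRNA 2 and 0.22 ± 0.09 (SE) with shRNA 1, each called in opposite directions in the authors' deposited tables (DESeq2 adjusted p for TMBIM6 0.0457 with shRNA 2 and 1.16e-07 with shRNA 1, for RTCB 0.000203 with shRNA 2 and 0.0498 with shRNA 1). The translocon subunit SEC61B was also called in opposite directions, at -0.56 ± 0.11 with shRNA 2 and 0.28 ± 0.10 (SE) with shRNA 1, whereas the protease MBTPS2, which cleaves ATF6, was lower with shRNA 2 and not called with shRNA 1, at -0.52 ± 0.14 with shRNA 2 and -0.34 ± 0.14 (SE) with shRNA 1, in the authors' deposited tables.

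Of 20 further degradation genes, 5 fell and 1 rose with shRNA 2, and 6 fell and 3 rose with shRNA 1. The lower share of 25.0% with shRNA 2 lay between the backgrounds of 18.1% and 28.0%, and the higher share of 15.0% with shRNA 1 was near the 13.0% of abundant genes, of which 21.5% were lower with that hairpin. UFD1, the partner of NPLOC4, was at -0.68 ± 0.12 with shRNA 2 and 0.31 ± 0.12 (SE) with shRNA 1 and the mannosidase MAN1B1 at 0.32 ± 0.09 with shRNA 2 and -0.49 ± 0.10 (SE) with shRNA 1, both called in opposite directions in the authors' deposited tables. The ligase cofactor FAM8A1 was at -0.30 ± 0.14 with shRNA 2 and -0.88 ± 0.14 with shRNA 1, the glycanase NGLY1 at -0.27 ± 0.10 with shRNA 2 and -0.62 ± 0.10 with shRNA 1, and the VCP inhibitor SVIP at -0.43 ± 0.11 with shRNA 2 and -0.39 ± 0.11 (SE) with shRNA 1 in the authors' deposited tables. All of these were called lower except FAM8A1 with shRNA 2.

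Of the further folding and glycan trimming genes, 10 of 24 fell and none rose with shRNA 2, and 1 of 23 fell and 5 rose with shRNA 1. This put the lower share at 41.7% with shRNA 2 and the higher share at 21.7% with shRNA 1, where 28.0% of abundant genes were lower with shRNA 2 and 13.0% higher with shRNA 1. The prolyl isomerase PPIB was at -0.30 ± 0.09 with shRNA 2 and 0.33 ± 0.09 with shRNA 1, the glucosidase subunit GANAB at -0.32 ± 0.07 with shRNA 2 and 0.19 ± 0.07 with shRNA 1, and the retrieval receptor KDELR2 at -0.27 ± 0.10 with shRNA 2 and 0.42 ± 0.10 (SE) with shRNA 1 in the authors' deposited tables, all called in opposite directions. The fucosyltransferase POFUT2 was at -0.29 ± 0.13 with shRNA 2 and 0.73 ± 0.13 (SE) with shRNA 1 and rose with shRNA 1, and DNAJC1 was at -0.53 ± 0.09 with shRNA 2 and -0.21 ± 0.09 (SE) with shRNA 1 and fell with shRNA 2, in the authors' deposited tables. Of 6 mRNAs known as substrates of IRE1 decay, 3 of the 5 tested (60.0%) were lower with shRNA 2. Over all genes tested with shRNA 2, 18.1% were lower. The 3 were SPARC at a ratio of 0.374, BLOC1S1 at 0.563 and PDGFRB at 0.278, computed from the authors' deposited table. PDGFRB had a mean of only 36.1, and its log2 SE with shRNA 2 was 0.71 (DESeq2 adjusted p 0.0348). None of 4 tested was called with shRNA 1, where the ratio was 1.25 for SPARC, 1.09 for BLOC1S1 and 1.05 for PDGFRB. HGSNAT was not called with either hairpin. COL6A1, with a mean of 11.8, was not called with shRNA 2 and had no adjusted p with shRNA 1, and SCARA3, with a mean of 1.45, had none with either.

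Members were also set out by targets named in mouse work. Of the 5 that depend on XBP1 in mouse fibroblasts (DNAJB9, DNAJB11, DNAJC3, EDEM1 and PDIA6), 3 were lower with each hairpin, with medians of -0.55 for shRNA 2 and -0.20 for shRNA 1. That is 60.0% of the set, where 28.0% of abundant genes were lower with shRNA 2 and 21.5% with shRNA 1, and 1 of the 3 with shRNA 1 is EDEM1, whose call was lost on recentring and without the filter on low counts. Of the 7 that depend on ATF6 in mouse cells (HSPA5, HSP90B1, HYOU1, PDIA4, HERPUD1, CRELD2 and CALR), 5 were lower with shRNA 2 and 4 with shRNA 1, with medians of -0.39 for shRNA 2 and -0.49 for shRNA 1. These counts are 71.4% with shRNA 2 and 57.1% with shRNA 1, beside the same backgrounds. None of either set was called higher, and sets of 5 and 7 genes make each share coarse.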

How the data were processed

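The submitters' processing notes name Salmon 0.12.0, DESeq2 1.24.0 and GRCh38 (hg38), without settings. The authors deposited 2 tables with, per the file headers, a signal (baseMean, the mean normalised read count, identical in both tables for all 33095 genes), a log2 fold change and its SE on the log2 scale, a Wald score, and p-values before and after adjustment. Genes without an adjusted p-value were left out of counts. No single-library values were available, so no count test was run, and the depth per library is unknown.

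Calls use the authors' DESeq2 adjusted p at 0.05. The coding as hairpin over scramble was checked on 902 genes by the dispersions that each table implies, with a median absolute log ratio of 0.0102 in the coding given and 0.0916 to 0.216 with signs turned. Group means, the dispersion and an alternative SE of the difference were reconstructed from both tables (Python 3.11.15, scipy 1.17.1), and the difference test was tested on simulated data. All members and IRF3 are named, with XBP1, ATF4, DDIT3 and up to 5 genes of each list of other pathway genes by the lower significance of their 2 p-values. The members and lists were chosen with earlier results of these data known. The background of more abundant genes, the levels per kb and the counts of genes outside the list with a motif were added after the values were seen. Positions are from GENCODE 29 (GRCh38) and promoter windows from RefSeq (GRCh38.p14), where genes with several starts were searched at all of them. Protein sequences were not analysed here. Other thresholds, filters on low genes, a minimum fold change, recentring, another SE of the difference and other members were tried as alternatives.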

Additional observations from a re-analysis of the deposited data

Results flagged for a closer look

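For 15 of the 37 genes the effects of the 2 hairpins differed in the two-sided z test, run on the log2 fold changes of the authors' deposited tables, at an adjusted p below 0.05. The differences, shRNA 2 minus shRNA 1 on the log2 scale, were below 0 for P4HB (-0.83), EIF2AK3 (-0.70), PDIA6 (-0.68), NPLOC4 (-0.68), HSPA5 (-0.66), VCP (-0.66), DNAJB11 (-0.66), ERLEC1 (-0.65), PDIA3 (-0.60), EDEM3 (-0.45), HSP90B1 (-0.42) and CANX (-0.31). They were above 0 for TXNDC11 (0.51), CALR (0.50) and SYVN1 (0.29). EIF2AK3 and P4HB were called lower with shRNA 2 and higher with shRNA 1, NPLOC4 was called with shRNA 1 and not with shRNA 2, and PDIA6 and TXNDC11 were called lower with both. IRF3 itself was at -0.18 with shRNA 2 and -1.53 with shRNA 1 in the authors' deposited tables, and what part its level has in these differences was not tested. The spread within each group of 2 libraries could not be examined for single libraries that stand apart.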

How the results depend on the processing

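No paired analysis was possible because the deposited tables give no values for single libraries, and for the same reason no library could be left out in turn. With a fold change minimum of 0.5 on the log2 scale, 13 members were lower and 0 higher with shRNA 2 by DESeq2 (22 and 1 without the minimum, and 2 more genes with an unadjusted p below 0.05), and 8 were lower and 1 higher with shRNA 1; of all genes tested, 12.1% were then lower and 6.57% higher with shRNA 2, and 8.95% lower and 4.87% higher with shRNA 1. With the reconstructed SE, 17 members were lower and 7 higher in the difference test, against 12 and 3, while the shares of all genes tested became 21.4% lower and 18.0% higher, against 13.8% and 10.1%; ATF6, ATF6B, DNAJB9, SDF2L1, MANF, UGGT1, OS9, DERL3 and SELENOS were added. The other settings moved these counts by no more than 1.5 times: with shRNA 2 the lower members numbered 19 at a threshold of 0.01 and 20 on recentring, and with shRNA 1 12 and 13. Recentring turned the sign of 5 values with shRNA 2 that were not called, namely WFS1 (0.027), CALR (0.027), DERL1 (0.016), DERL3 (0.031) and NPLOC4 (0.028), because the median gene with a mean of 50 or more lay at -0.04 in both comparisons. Of 592 values of single members across the settings, 543 kept their direction and side of the threshold, 31 lost and 13 gained a call. Only recentring alters the fold changes themselves, so that at the other settings a direction could not change. Median log2 fold changes were -0.30 with shRNA 2 and -0.10 with shRNA 1 after recentring, and -0.35 with shRNA 2 and -0.11 with shRNA 1 over the 34 members with a mean of 1000 or more. The precision rests on 2 libraries per group, and the SE of EDEM2, the least abundant member, was 0.18 with each hairpin.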
